A study of Mus musculus with 8 samples.

Results

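The 34 genes described here encode the proteins that form a blood clot, those that hold clotting in check and those that dissolve the clot. They were chosen by name, with earlier results of these data known. Every probe set of the array that its annotation paired with just 1 of them was taken. That gave 33 genes on 48 probe sets, of 18193 genes with such a probe set. All 33 passed the filter on low intensity, which left 12949 genes in all, and each gene is given by its brightest probe set unless stated otherwise. Cpb2, which encodes a carboxypeptidase that slows fibrinolysis, is not analysed here.

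Liver RNA was hybridised to Affymetrix expression arrays from Pemt-/- mice, which lack phosphatidylethanolamine N-methyltransferase, and from Pemt+/+ mice. Both genotypes received a high fat-high sucrose (HFHS) diet, and livers were taken after 1, 2, 3 and 4 weeks, with 1 array per genotype and week and so 4 arrays per genotype. The study's methods describe the mice as male and give 4 mice per genotype for the samples of weeks 1 to 4. They do not say whether these are 4 in all or 4 per week. Neither the age of the mice on the arrays nor whether an array held RNA of 1 mouse or of a pool was given in the sources used here. The deletion is present in the whole animal, and all 8 arrays analysed here came from mice on the HFHS diet.

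Most clotting factors circulate as inactive precursors made by hepatocytes. They activate each other in sequence, either from tissue factor and factor VII or from the contact system of factor XII, prekallikrein, kininogen and factor XI, and both routes meet at factor X and thrombin, which turns fibrinogen into fibrin. A group of these precursors works only after vitamin K-dependent carboxylation in the endoplasmic reticulum (ER). Endothelial cells supply von Willebrand factor, factor VIII, thrombomodulin and tissue plasminogen activator, and macrophages carry the urokinase receptor, so a liver sample holds the transcripts of the system from several cell types.

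The Pemt probe set, which checks the labels, read 237, 203, 201 and 255 in Pemt-/- livers at weeks 1 to 4, against 5491, 4989, 5645 and 6045 in Pemt+/+ livers. It was far lower on every Pemt-/- array, 23.2-fold in the fit (log2 difference -4.54 ± 0.10 SE, adjusted p = 5.00e-07, limma). Whether that probe set lies within the deleted stretch was not known here. Hepatocyte transcripts were among the brightest signals on all 8 arrays, with albumin between 33425 and 44501 in Pemt-/- livers and between 40661 and 47748 in Pemt+/+ livers. Between 9.01% and 10.5% of the signal on Pemt-/- arrays, most at week 2, came from the 100 brightest probe sets, and between 10.9% and 11.5% on Pemt+/+ arrays. All differences below are Pemt-/- minus Pemt+/+ on the scale log2(intensity + 16), with the standard error (SE) of a limma fit over 4 arrays per genotype that holds the week as a factor. Adjusted p values are two-sided, by the Benjamini-Hochberg method over all kept probe sets, and below 0.05 a gene is said to have fallen or risen. They measure the spread between these arrays across weeks, and with 4 arrays per genotype all values are of limited precision.

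Of the 33 genes, 20 fell and 2 rose in Pemt-/- livers. Over all genes tested, 7.51% fell and 12.6% rose. The falls were in the genes made by hepatocytes, of which 18 of 22 fell and none rose, and in 2 of the 4 genes of the ER steps. The 2 rises, Vwf and Plat, were among the 5 endothelial genes, none of which fell, and neither gene of the urokinase system passed the test. The median log2 difference was -0.45 for the hepatocyte-made genes, 0.38 for the endothelial genes and 0.02 for all genes tested. All 4 Pemt-/- values lay below all 4 Pemt+/+ values for 20 of the 33 genes and above them for 3, against 10.4% and 15.2% of all genes. Leaving out week 3 reduced the count of 20 falls to 4 (F11, Klkb1, Fgb and Fga), and leaving out week 4 to 7, those 4 with F10, Proc and Hrg. Leaving out week 1 reduced it to 12, by F2, F5, F7, F9, F13b, Serpinc1, Kng1 and Vkorc1. Quantile normalization gave 11, limma without its intensity trend 4, and the t-test of the study's methods 11 after Benjamini-Hochberg adjustment. That t-test is the study's general method for comparing groups. For its arrays the study describes a selection by expression ratio at each week. In sign, 21 of the 22 hepatocyte-made genes were below 0 under all 14 settings that keep a scaling over the whole array. The filters, the trend and the week block leave the fitted differences as they are, so those settings could not change a sign. Relative to hepatocyte markers, described further on, 10 of the 22 were below 0.

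**Figure D1:**
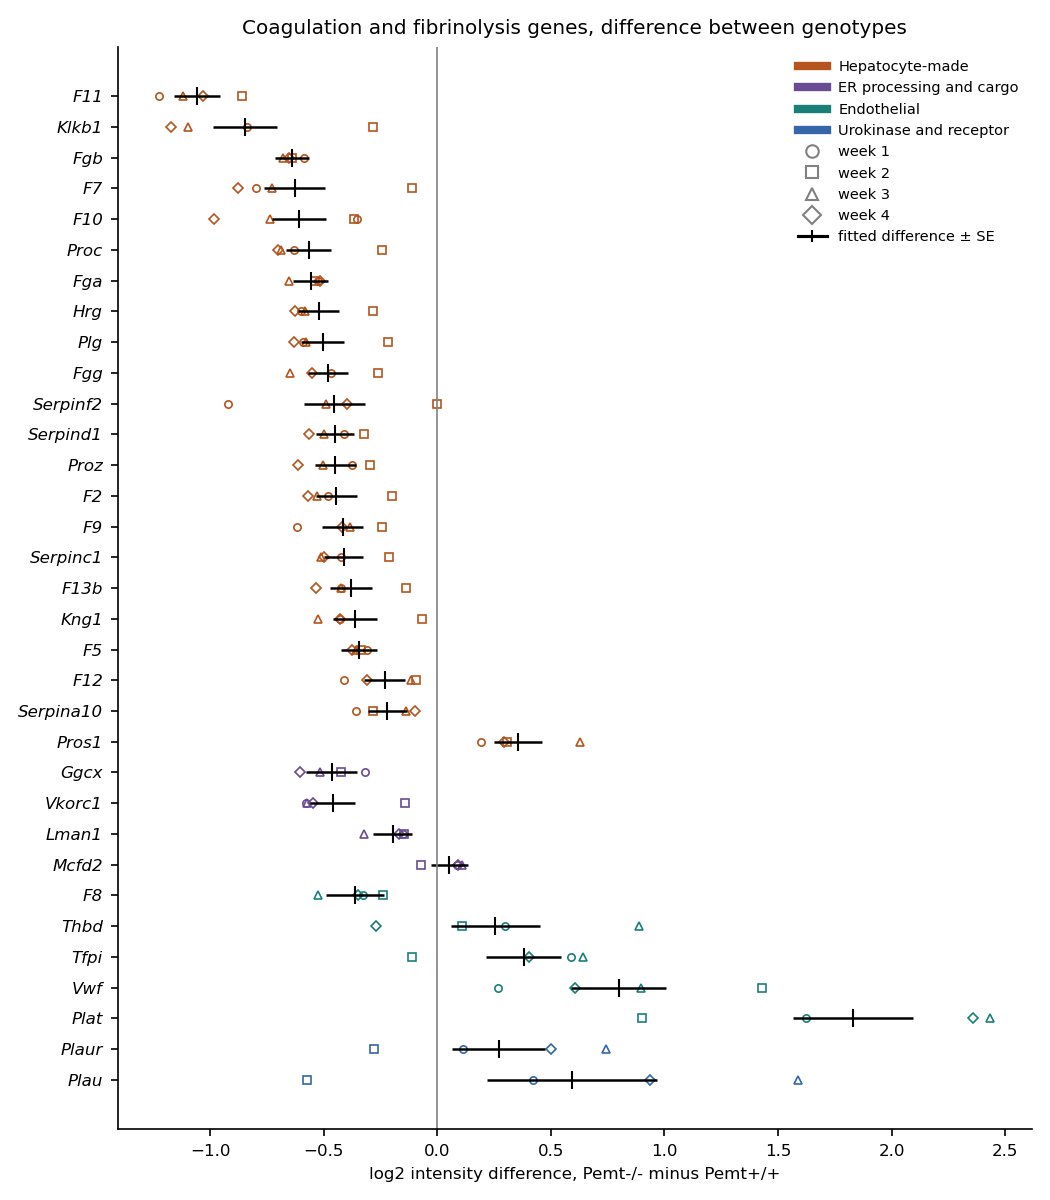
Difference between genotypes for the 33 genes, grouped by an assigned source that was not measured here. Each row is a gene, the x axis is the log2 intensity difference (Pemt-/- minus Pemt+/+), open symbols are the 4 weeks and the black mark with its bar is the fitted difference ± SE; 21 of the 22 hepatocyte-made genes have a fitted difference below 0, Pros1 being the other, and F11 lies lowest at -1.06.

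The contact system held the 2 largest falls of the 33 genes. F11, which encodes factor XI, the protease that activates factor IX, read 1577, 2170.3, 1700.3 and 1534 in Pemt-/- livers at weeks 1 to 4, against 3705, 3946, 3711 and 3148 in Pemt+/+ livers. The groups did not overlap, the highest Pemt-/- value being that of week 2, and the fall of F11 was 2.08-fold (log2 difference -1.06 ± 0.10 SE, adjusted p = 0.000761, limma). Klkb1, which encodes plasma prekallikrein, the zymogen that cleaves kininogen and activates factor XII, read 8636, 10286, 7364 and 5802 in Pemt-/- livers at weeks 1 to 4, against 15448, 12524, 15757 and 13074 in Pemt+/+ livers. Its lowest Pemt-/- value was at week 4 and the groups stayed apart, a 1.80-fold fall (log2 difference -0.85 ± 0.14 SE, adjusted p = 0.00586). The calls of F11 and Klkb1 held under all 14 alternative settings. Kng1, which encodes high molecular weight kininogen, the carrier of prekallikrein and factor XI, read 30303, 39703, 30482 and 29533 in Pemt-/- livers at weeks 1 to 4, against 40830.2, 41564, 43827 and 39772 in Pemt+/+ livers. The Pemt-/- array of week 2 stood near the Pemt+/+ level while the other 3 were well below it (log2 difference -0.36 ± 0.10 SE, adjusted p = 0.0353). The Kng1 call was lost in 7 of the 14 alternatives, and with quantile normalization the difference was -0.04 (adjusted p = 0.708). A second Kng1 probe set gave -0.69 (adjusted p = 0.0053), and because mice carry a close paralog, Kng2, the 2 genes may share signal. F12, the zymogen that starts the contact route, ranged over 8812 to 10616 in Pemt-/- and 10521 to 11736 in Pemt+/+. The groups overlapped, with the smallest differences at weeks 2 and 3 (-0.09 and -0.12), and the test was not passed (log2 difference -0.23 ± 0.09 SE, adjusted p = 0.121).

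All 3 chains of fibrinogen, the soluble precursor of fibrin, fell. Fgb, the beta chain, read 36339, 37119.9, 33494 and 34023 in Pemt-/- livers at weeks 1 to 4, against 54588, 57746, 53589 and 53554 in Pemt+/+ livers. Both groups were narrow and far apart, and Fgb fell 1.56-fold (log2 difference -0.64 ± 0.08 SE, adjusted p = 0.0016, limma), a call kept under all 14 alternatives. Fga, the alpha chain, read 25750.1, 27642, 29712 and 35224 in Pemt-/- livers at weeks 1 to 4, against 37018, 40097, 46728 and 50346 in Pemt+/+ livers. Its values were higher at later weeks in both genotypes, with fitted changes per week of 0.15 ± 0.05 SE in Pemt-/- and 0.16 ± 0.05 SE in Pemt+/+ that did not pass the test, and the groups did not overlap (log2 difference -0.56 ± 0.08 SE, adjusted p = 0.00279). Fgg, the gamma chain, read 31064, 38300.2, 29184 and 30969 in Pemt-/- livers at weeks 1 to 4, against 42921, 45872, 45713 and 45366 in Pemt+/+ livers. The Pemt-/- values stayed below the Pemt+/+ values in every week, least so at week 2 (log2 difference -0.48 ± 0.09 SE, adjusted p = 0.00893). The weekly log2 differences of Fgb lay between -0.68 and -0.59, those of Fga between -0.65 and -0.52 and those of Fgg between -0.65 and -0.26. With quantile normalization the differences were -0.29 for Fgb (adjusted p = 0.0204), -0.20 for Fga (adjusted p = 0.0759) and -0.14 for Fgg (adjusted p = 0.135), so that 1 of the 3 chains passed. The Fgg call was also lost without the trend and without week 3 or week 4 (adjusted p = 0.0694, 0.0772 and 0.0509). Fibrinogen is an acute phase protein, and of 8 other acute phase genes of the liver 4 fell and 1 rose, with a median of -0.42. These 8 genes did not share 1 direction, with differences from -0.77 to 3.03. Their median was 0.21, -0.48, -0.30 and -0.53 at weeks 1 to 4.

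**Figure D2:**
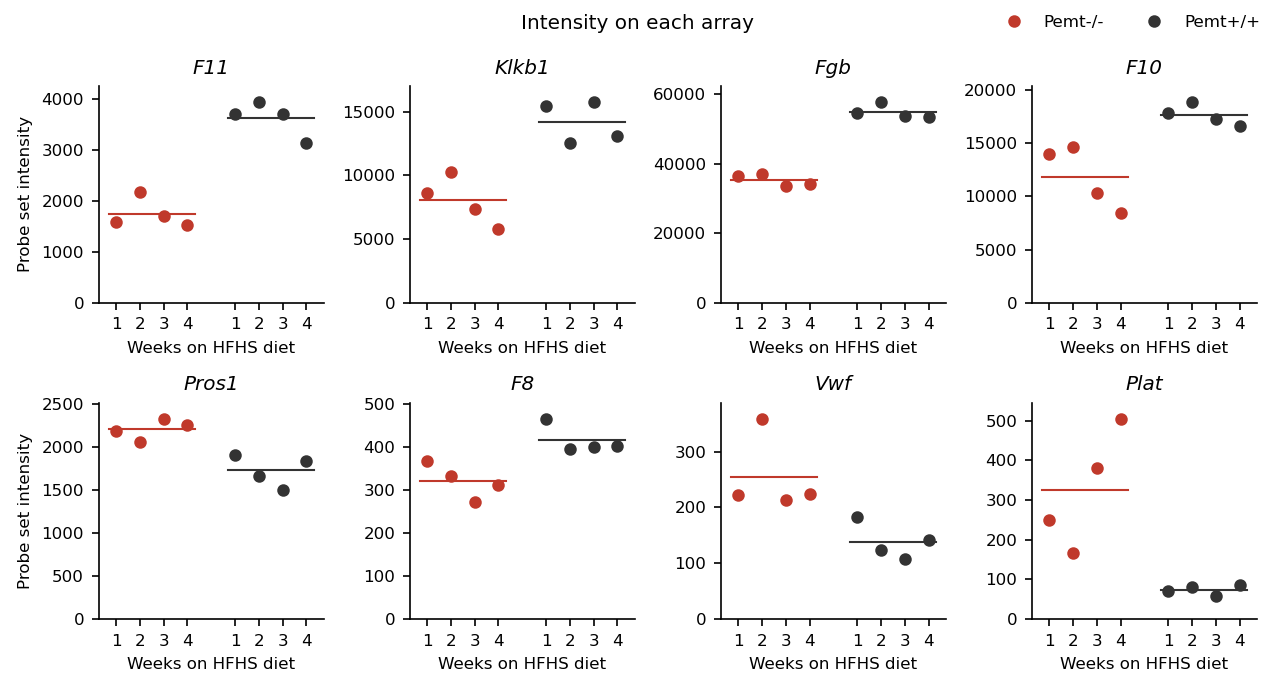
Intensity on each array for 8 of the genes. In each panel the Pemt-/- arrays stand left of the Pemt+/+ arrays, in week order along the x axis, the y axis is probe set intensity on a linear scale from 0, and the horizontal line is the mean of the 4 arrays; the groups do not overlap in any of the 8 panels, Pemt-/- being below Pemt+/+ for F11, Klkb1, Fgb, F10 and F8 and above it for Pros1, Vwf and Plat.

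Of the 7 genes of vitamin K-dependent proteins, 6 fell and Pros1 was higher without passing the test. F10, which encodes factor X, the protease that turns prothrombin into thrombin, read 13978, 14656, 10361 and 8431 in Pemt-/- livers at weeks 1 to 4, against 17852, 18889.9, 17252 and 16669 in Pemt+/+ livers. The Pemt-/- values of weeks 3 and 4 were below those of weeks 1 and 2, whereas the Pemt+/+ values stayed within a narrow range (log2 difference -0.61 ± 0.12 SE, adjusted p = 0.0107, limma). Its other 2 probe sets, which were dimmer, gave -0.15 (adjusted p = 0.462) and -0.23 (adjusted p = 0.19), so the fall of F10 rests on 1 of 3 probe sets. F7, the protease that pairs with tissue factor, read 3084, 3997, 2740.5 and 2388 in Pemt-/- livers at weeks 1 to 4, against 5367, 4318, 4549 and 4399 in Pemt+/+ livers. The week 2 arrays nearly met and the other weeks were well apart (log2 difference -0.63 ± 0.13 SE, adjusted p = 0.0149). Proc, which encodes protein C, the zymogen of an anticoagulant protease that inactivates factors V and VIII, read 13046, 16024, 12083 and 10902 in Pemt-/- livers at weeks 1 to 4, against 20183, 18992, 19494 and 17752 in Pemt+/+ livers. Every Pemt-/- value was below every Pemt+/+ value (log2 difference -0.57 ± 0.10 SE, adjusted p = 0.00735). F2, which encodes prothrombin, read 27093, 33456, 26323 and 24192 in Pemt-/- livers at weeks 1 to 4, against 37802, 38414, 38046 and 35899 in Pemt+/+ livers, and again only the week 2 array of Pemt-/- came close (log2 difference -0.44 ± 0.09 SE, adjusted p = 0.0126). F9, the protease that activates factor X with factor VIII, ranged over 8853 to 11769 in Pemt-/- and 12242 to 13929 in Pemt+/+. It fell without overlap, most at week 1 (log2 difference -0.42 ± 0.09 SE, adjusted p = 0.0167). Proz, whose product helps an inhibitor bind factor Xa, ranged over 6029 to 8098 in Pemt-/- and 9238 to 10308 in Pemt+/+, again without overlap (log2 difference -0.45 ± 0.09 SE, adjusted p = 0.012). The dimmer second probe set of Proz gave -0.48 with overlapping groups (adjusted p = 0.0846).

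Pros1, which encodes protein S, the cofactor of activated protein C, was the one hepatocyte-made gene above 0. It read 2183, 2051, 2326 and 2251 in Pemt-/- livers at weeks 1 to 4, against 1906, 1657, 1497 and 1833 in Pemt+/+ livers. All 4 Pemt-/- values exceeded all 4 Pemt+/+ values, yet the test was not passed (log2 difference 0.36 ± 0.11 SE, adjusted p = 0.0544, limma). The adjusted p was below 0.05 with a stricter filter (adjusted p = 0.0458), with probe sets averaged (adjusted p = 0.0459) and with the week left out of the model (adjusted p = 0.0326). Protein S is also made by endothelial cells and megakaryocytes, which the whole-liver signal does not separate.

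Both enzymes of the carboxylation step fell. Ggcx, the gamma-glutamyl carboxylase, read 756, 663, 609.7 and 675 in Pemt-/- livers at weeks 1 to 4, against 946, 895, 880.0 and 1034 in Pemt+/+ livers. Its groups were apart (log2 difference -0.47 ± 0.11 SE, adjusted p = 0.023, limma), and its dimmer probe set gave a like value with overlapping groups (-0.46, adjusted p = 0.0934). Vkorc1, which regenerates reduced vitamin K and is the target of warfarin, read 14461, 18076, 14098 and 13314 in Pemt-/- livers at weeks 1 to 4, against 21574, 19965, 20986 and 19463 in Pemt+/+ livers. Its groups were apart, with week 2 the closest (log2 difference -0.46 ± 0.10 SE, adjusted p = 0.0159). Lman1 and Mcfd2, whose products together carry factors V and VIII out of the ER, did not pass the test. Lman1 ranged over 6319.6 to 7911 in Pemt-/- and 7784 to 8746 in Pemt+/+. It differed by -0.20 (adjusted p = 0.152), and its 4 dimmer probe sets ran from -0.26 to 0.26, 1 of them below 0. Mcfd2 ranged over 10372 to 11925 in Pemt-/- and 9762 to 11667 in Pemt+/+. These values overlapped, with a difference of 0.05 (adjusted p = 0.707).

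The promoters of the 3 genes with the largest falls are shown beside that of Pros1, the hepatocyte-made gene with the opposite sign, so that the sequence upstream of genes that differed in sign can be read directly. Each line gives 250 bases upstream of the RefSeq transcript start in GRCm38.p6, 5′ to 3′ on the gene's strand. Capitals mark matches to motifs of liver transcription factors.
F11 (chr8:45262032-45262281, minus strand): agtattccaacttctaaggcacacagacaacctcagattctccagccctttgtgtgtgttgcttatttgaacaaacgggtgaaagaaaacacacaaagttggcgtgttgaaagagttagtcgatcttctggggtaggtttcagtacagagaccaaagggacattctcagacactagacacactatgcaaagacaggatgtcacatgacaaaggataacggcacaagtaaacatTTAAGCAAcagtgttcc
Klkb1 (chr8:45294836-45295085, minus strand): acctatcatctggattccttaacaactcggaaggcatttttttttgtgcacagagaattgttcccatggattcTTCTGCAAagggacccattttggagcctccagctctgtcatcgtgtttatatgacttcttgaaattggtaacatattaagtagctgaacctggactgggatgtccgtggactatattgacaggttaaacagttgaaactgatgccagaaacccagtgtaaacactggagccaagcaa
Fgb (chr3:83049864-83050113, minus strand): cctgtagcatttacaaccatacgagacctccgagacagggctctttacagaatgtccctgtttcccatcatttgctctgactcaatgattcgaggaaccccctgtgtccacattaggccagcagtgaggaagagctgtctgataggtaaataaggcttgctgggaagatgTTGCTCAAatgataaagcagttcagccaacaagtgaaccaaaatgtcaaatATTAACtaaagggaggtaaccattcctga
Pros1 (chr16:62854057-62854306, plus strand): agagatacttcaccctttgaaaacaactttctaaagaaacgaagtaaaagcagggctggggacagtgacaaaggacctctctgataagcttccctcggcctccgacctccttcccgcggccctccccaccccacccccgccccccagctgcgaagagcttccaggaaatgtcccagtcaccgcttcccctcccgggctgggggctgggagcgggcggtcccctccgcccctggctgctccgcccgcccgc
F11 and Klkb1 are next to each other on chromosome 8, in the same orientation. Both strands were searched for GTTAAT (bound by HNF1), CAAAGTNCA (HNF4) and TTGCNNAA (C/EBP), and no matches overlapped in these 4 windows. The F11 window held a C/EBP match that began 17 bases upstream of the start, the Klkb1 window held one 177 bases upstream, and the Fgb window held a C/EBP match 80 bases and an HNF1 match 29 bases upstream. The Pros1 window, rich in G and C, held none of the 3. Windows were found for 25 of the 34 genes, 19 of them hepatocyte-made. Among these 19 the C/EBP motif was in 6 (F11, F9, Fga, Fgb, Hrg and Klkb1), the HNF1 motif in 4 (F13b, Fga, Fgb and Proz) and the HNF4 motif in 1 (F9). Most of the 19 windows, those of Pros1 and of several fallen genes among them, held none of the 3. The lack of a match therefore does not set Pros1 apart. Of 7 windows of the other clotting genes, 2 held the C/EBP motif (Ggcx and Plaur, 28.6% against 31.6% of the 19) and none held the other 2 motifs. Of all 32851 RefSeq windows of this length, 9.56% held the C/EBP motif, 6.43% the HNF1 motif and 1.19% the HNF4 motif. A match is a description of the letters and shows neither a binding site nor a cause.

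Plg, which encodes plasminogen, the precursor of the fibrin-cutting protease plasmin, read 28754, 38086, 29368 and 27736 in Pemt-/- livers at weeks 1 to 4, against 43361, 44252, 43896 and 42932 in Pemt+/+ livers. The 4 Pemt-/- values were all lower, that of week 2 by the least (log2 difference -0.50 ± 0.09 SE, adjusted p = 0.00911, limma). Hrg, a plasma protein that binds plasminogen and heparin, read 13029.9, 16930.3, 14351 and 12663 in Pemt-/- livers at weeks 1 to 4, against 19759, 20624, 21478 and 19529 in Pemt+/+ livers. Its groups did not overlap either (log2 difference -0.52 ± 0.09 SE, adjusted p = 0.00664). Serpinf2, which encodes the plasmin inhibitor alpha2-antiplasmin, read 9469, 15915, 10931 and 10554 in Pemt-/- livers at weeks 1 to 4, against 17925, 15906, 15365 and 13924 in Pemt+/+ livers. At week 2 the genotypes were level, the other weeks were below, and the gene did not pass (log2 difference -0.45 ± 0.14 SE, adjusted p = 0.0545). Without week 2 it did, at -0.60 (adjusted p = 0.00878).

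Of the 4 serpins, which inhibit clotting and fibrin-cutting proteases, 2 fell and the other 2 did not pass. Serpinc1, which encodes antithrombin, read 30446, 36077, 29785 and 28241 in Pemt-/- livers at weeks 1 to 4, against 40834, 41784, 42514 and 39931 in Pemt+/+ livers. The values were apart in every week (log2 difference -0.41 ± 0.09 SE, adjusted p = 0.0139, limma). The Serpinc1 call was lost in 6 of the 14 alternatives, and with quantile normalization the difference was -0.08 (adjusted p = 0.409). Serpind1, the thrombin inhibitor heparin cofactor II, ranged over 6890.1 to 9729.6 in Pemt-/- and 10196 to 12417 in Pemt+/+. It fell, also without overlap (log2 difference -0.45 ± 0.09 SE, adjusted p = 0.00949). Serpina10, the partner of protein Z against factor Xa, ranged over 10188 to 13908 in Pemt-/- and 13060.5 to 16944 in Pemt+/+. Its groups overlapped, its differences were larger at weeks 1 and 2 than at weeks 3 and 4, and it did not pass (log2 difference -0.22 ± 0.09 SE, adjusted p = 0.12). Among the remaining hepatocyte-made genes, F5, the cofactor of factor Xa, ranged over 11407 to 12666 in Pemt-/- and 14818 to 15691 in Pemt+/+. It fell by 0.34 on the log2 scale (adjusted p = 0.0197) in its brighter probe set, and its second probe set differed by -0.02 (adjusted p = 0.908), so 1 of 2 probe sets showed the fall. F13b, the carrier subunit of the fibrin-crosslinking factor XIII, ranged over 6699 to 9875 in Pemt-/- and 9704 to 11946 in Pemt+/+. It fell (log2 difference -0.38 ± 0.09 SE, adjusted p = 0.0273), and its groups overlapped through the week 2 array of Pemt-/-. The F13b call was lost in 8 of the 14 alternatives, and that of F5 in 7.

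The falls were set beside those of other bright transcripts, because 19 of the 22 hepatocyte-made genes had a mean intensity above 5000. Of the 1085 genes tested above that level, 36.5% fell and 6.73% rose, with a median difference of -0.22. Of the 19, 16 fell and none rose, with a median of -0.45. The separation of all 4 Pemt-/- from all 4 Pemt+/+ values was seen in 15 of the 19 and in 36.5% of the 1085. Of 17 markers of hepatocytes that are not among the genes described here, 15 fell and none rose, with a median of -0.44. Their summed intensity ran from 388668 to 500141 on Pemt-/- arrays and from 544519 to 590735 on Pemt+/+ arrays. With quantile normalization the median of the genes above 5000 was -0.04, and that of the 22 hepatocyte-made genes was -0.23. Of the genes above 5000, 175 then fell, against 396 in the main fit. In whole liver, fewer hepatocytes, less RNA per hepatocyte and the scaling of the arrays cannot be told apart.

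**Figure D3:**
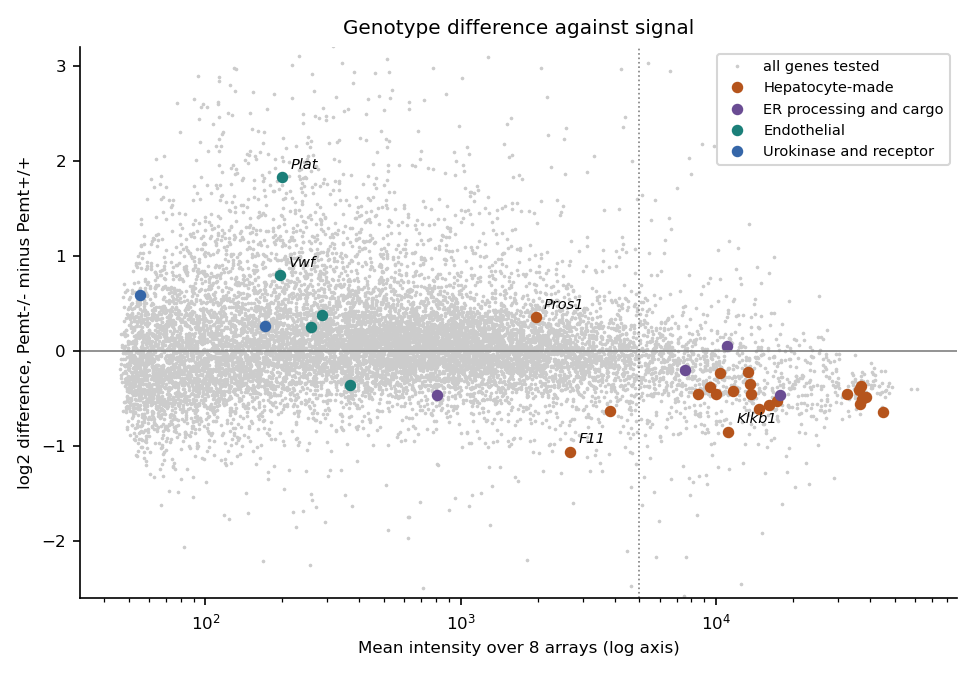
Difference between genotypes against signal for all 12949 genes. The x axis is mean intensity over the 8 arrays (log axis, dotted line at 5000), the y axis is the log2 difference (Pemt-/- minus Pemt+/+), grey dots are all genes and coloured dots the 33 clotting genes, with 21 genes beyond the y axis limits of -2.6 and 3.2; 19 hepatocyte-made genes lie right of the dotted line, all of them below 0, in a region where 36.5% of genes fell.

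As an alternative chosen after the data were seen, each array was set relative to its own mean over those 17 hepatocyte markers, which lay at 14.01, 14.28, 14.04 and 13.91 (log2) on the Pemt-/- arrays of weeks 1 to 4 and at 14.50, 14.57, 14.60 and 14.49 on the Pemt+/+ arrays. On this scale the median of the hepatocyte-made genes was 0.03, and 17 of the 22 passed the test in neither direction. F11 and Klkb1 were the 2 of the 33 genes that remained lower, where 1.44% of all genes were lower. F11 differed by -0.58 ± 0.11 SE, adjusted p = 0.00264, and stayed past the threshold in all 5 repeats (quantile normalization, and without each week in turn). Klkb1 differed by -0.37 ± 0.11 SE, adjusted p = 0.0182, and passed in 2 of the 5 repeats, with adjusted p from 0.00268 to 0.0923. In the other direction 11 of the 33 were higher, where 55.4% of all genes were higher, so that count is not a result about these genes. The median of all genes tested was 0.50 on this scale. Pros1 differed by 0.84 ± 0.13 SE, adjusted p = 0.00113, with the same call in all 5 repeats. F12 (0.25, adjusted p = 0.0381) and Serpina10 (0.26, adjusted p = 0.0454) were the other hepatocyte-made genes above the markers, in 2 and 1 of the 5 repeats. Pros1 lay above the median of all genes, whereas F12 and Serpina10 lay below it, so these last calls do not set them apart.

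**Figure D4:**
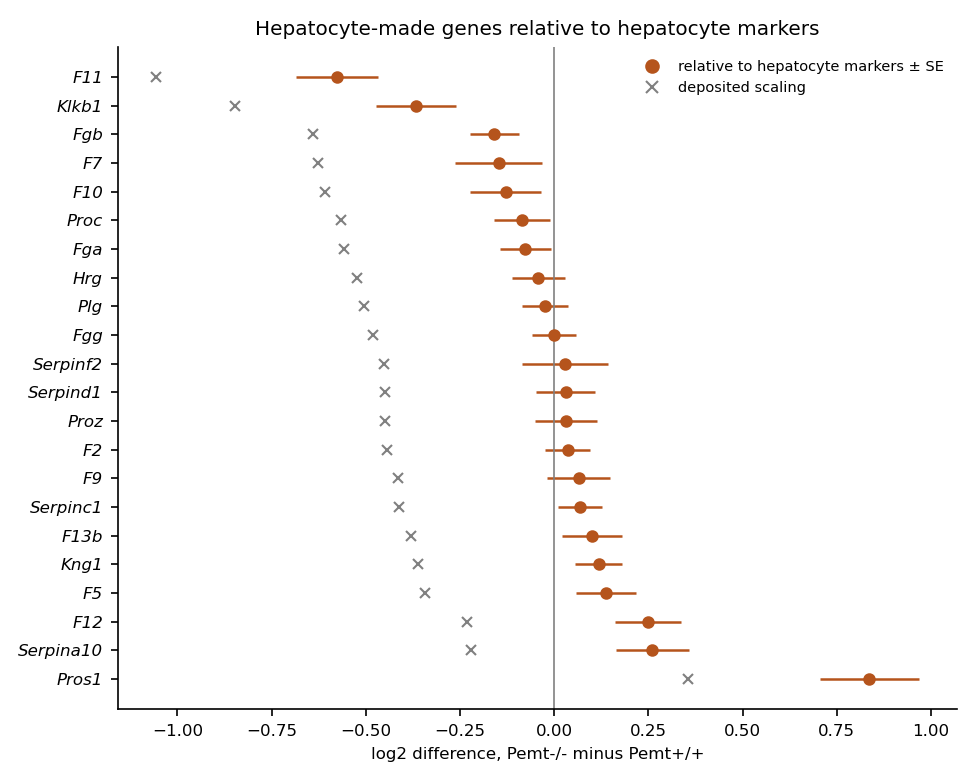
Hepatocyte-made genes relative to 17 hepatocyte markers. Each row is a gene, filled circles with bars are the log2 difference (Pemt-/- minus Pemt+/+) relative to the markers ± SE and crosses are the difference on the deposited scaling; F11 at -0.58 and Klkb1 at -0.37 lie lowest, Pros1 at 0.84 highest, and the median of the 22 is 0.03.

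The endothelial genes did not share 1 direction. Plat, which encodes tissue plasminogen activator, the protease that turns plasminogen into plasmin on fibrin, read 250.2, 166, 379.9 and 505 in Pemt-/- livers at weeks 1 to 4, against 70.3, 81.5, 57.2 and 85.6 in Pemt+/+ livers. Every Pemt-/- value exceeded every Pemt+/+ value, weeks 3 and 4 by the most and week 2 by the least. Plat was 3.56-fold higher (log2 difference 1.83 ± 0.27 SE, adjusted p = 0.00321, limma), and the call held under all 14 alternatives, with log2 differences from 0.96 with probe sets averaged to 2.14 without week 2. The Pemt+/+ values of Plat lay near the medians of all probe sets, 73.8 to 81.3 over the 8 arrays, and no detection calls were used, so the size of this fold is uncertain. The dimmer second Plat probe set gave 0.10 (adjusted p = 0.86). Vwf, the platelet-binding multimer that also carries factor VIII in plasma, read 222, 359, 214 and 223 in Pemt-/- livers at weeks 1 to 4, against 182, 123, 107 and 141 in Pemt+/+ livers. The groups were apart and the Pemt-/- array of week 2 stood far above the other 3 (1.74-fold higher, log2 difference 0.80 ± 0.21 SE, adjusted p = 0.0329). The Vwf call was lost without weeks 2, 3 and 4 in turn, with adjusted p of 0.0816, 0.117 and 0.0748, and under 4 other settings, with adjusted p from 0.0638 to 0.0759.

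F8, which encodes factor VIII, the cofactor of factor IXa, made in liver by sinusoidal endothelium, lay on the other side. It read 369, 333, 272 and 313 in Pemt-/- livers at weeks 1 to 4, against 466, 396, 399 and 402 in Pemt+/+ livers. All Pemt-/- values were below all Pemt+/+ values, and the test was not passed (log2 difference -0.36 ± 0.13 SE, adjusted p = 0.0922, limma) except with quantile normalization (adjusted p = 0.0367) and with centring on the kept probe sets (adjusted p = 0.028). Tfpi, the inhibitor of the tissue factor route, ranged over 282 to 405 in Pemt-/- and 175 to 332 in Pemt+/+. It differed by 0.38 (adjusted p = 0.16), with overlapping values and 3 further probe sets at -0.04, -0.46 and 0.27. Thbd, or thrombomodulin, the endothelial receptor that turns thrombin towards protein C, read 332, 230.3, 326 and 238 in Pemt-/- livers at weeks 1 to 4, against 268, 212, 169 and 291 in Pemt+/+ livers. The groups overlapped and week 4 went the other way (log2 difference 0.26 ± 0.20 SE, adjusted p = 0.422). Beside these, of 12 markers of sinusoidal endothelium 4 fell and none rose (median -0.21, summed intensity 7914 to 15158 in Pemt-/- and 11345 to 16222 in Pemt+/+), and none of 10 general endothelial markers passed the test (median -0.06, sum 3467 to 5742 in Pemt-/- and 3996 to 5193 in Pemt+/+).

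Platelets and stellate cells can also carry some of these transcripts. Of 6 platelet and megakaryocyte markers, Pf4 rose (1.36, adjusted p = 0.00443) and the other 5 did not pass, among them Itga2b at -0.05 and Gp1bb at -0.75. The median of the 6 was 0.04, with 3 below 0 and 3 above. Their sum was 1176 to 1405 in Pemt-/- and 818 to 1015 in Pemt+/+. Pf4 was the brightest of the 6 on every Pemt-/- array. On the Pemt+/+ array of week 3, Gp1bb (230) and Itga2b (211) read higher than Pf4. Pf4 alone read 747, 588, 838 and 913 in Pemt-/- livers at weeks 1 to 4, against 308, 362, 176 and 344 in Pemt+/+ livers. All 10 stellate cell markers rose, with a median of 1.30 and a sum of 37497 to 53188 in Pemt-/- livers, against 14472 to 18795 in Pemt+/+ livers. Of 4 neutrophil markers 3 rose, with a sum of 935 to 1665 in Pemt-/- and 179 to 576 in Pemt+/+, and of 5 cholangiocyte markers 1 rose, with a sum of 633 to 980.4 in Pemt-/- and 409 to 641 in Pemt+/+. No marker was listed at 0 on any array. Their part in the rises of Plat and Vwf was not tested.

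The urokinase pair was dim and variable. Plaur, the receptor that holds urokinase at the cell surface, read 131, 158, 239 and 232 in Pemt-/- livers at weeks 1 to 4, against 119.6, 195, 136 and 159 in Pemt+/+ livers. Weeks 3 and 4 were higher and week 2 lower in Pemt-/-, and the groups overlapped (log2 difference 0.27 ± 0.20 SE, adjusted p = 0.413, limma). Plau, or urokinase, a second activator of plasminogen, read 56, 14.5, 141 and 89 in Pemt-/- livers at weeks 1 to 4, against 37.7, 29.4, 36.1 and 38.8 in Pemt+/+ livers. Again weeks 3 and 4 were the high Pemt-/- arrays and week 2 the low one (log2 difference 0.59 ± 0.38 SE, adjusted p = 0.325). Beside this pair, 13 of 16 macrophage markers rose and none fell, with a median of 1.37 and a summed intensity of 35975 to 49299 in Pemt-/- livers, against 15351 to 22240.4 in Pemt+/+ livers.

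Within single weeks, where each genotype had 1 array and no test was possible, 9, 3, 8 and 10 of the 33 genes were lower by 1.5-fold or more at weeks 1, 2, 3 and 4. The shares of all genes were 10.5%, 12%, 13% and 14.1%. By the same measure 2, 2, 7 and 3 genes were higher, against 16.4%, 14.2%, 20% and 19.2% of all genes. The median difference of the 22 hepatocyte-made genes was -0.47, -0.25, -0.53 and -0.56 in the 4 weeks, and 20 of the 22 were below 0 in every week. Week 2 had the smallest difference in 16 of the 22, in 537 of the 1085 genes above an intensity of 5000 and in 12 of the 17 hepatocyte markers, whose median was -0.40, -0.18, -0.51 and -0.52. The change per week differed between genotypes in none of the 33 genes and in 0% of all genes (limma, adjusted p), and at an unadjusted p below 0.05 in 1 of the 33 and in 7.53% of all genes. That gene was F10, whose level changed by -0.27 ± 0.06 SE per week in Pemt-/- and by -0.04 ± 0.06 SE in Pemt+/+ on the log2 scale (difference -0.23 ± 0.08 SE, adjusted p = 0.685). The 2 dimmer probe sets of F10 did not show this, with differences in change per week of 0.14 and -0.02.

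A wider list of other haemostasis genes held 24 tested genes, of which 4 fell, 7 rose and 13 did not pass. Over all genes tested, 7.51% fell and 12.6% rose. The median of the 24 was -0.11, and only genes that passed are named here. The falls included Tfpi2, a protease inhibitor related to Tfpi (-0.86, adjusted p = 0.00286), Fgl1, a fibrinogen-like protein of hepatocytes (-0.61, adjusted p = 0.00334), and Serping1, the C1 inhibitor, which blocks factor XIIa and kallikrein (-0.56, adjusted p = 0.00613). Serping1 read 19768, 25626, 20521 and 20876 in Pemt-/- livers at weeks 1 to 4, against 32933, 31289, 32206 and 31027 in Pemt+/+ livers. The groups were apart, with every Pemt-/- value lower. Anxa2, or annexin A2, a cell surface receptor for plasminogen and tissue plasminogen activator, read 4221, 4154, 10085 and 12054 in Pemt-/- livers at weeks 1 to 4, against 773, 919, 718 and 1035 in Pemt+/+ livers. It was 7.84-fold higher (log2 difference 2.97 ± 0.25 SE, adjusted p = 0.000539, limma), most at weeks 3 and 4. Its partner S100a10 (0.72, adjusted p = 0.0128) and Plgrkt, a plasminogen receptor (0.88, adjusted p = 0.00702), rose as well. So did Gas6, a vitamin K-dependent ligand related to protein S (0.70, adjusted p = 0.00342), and Fgl2, a prothrombinase of macrophages and endothelium (0.77, adjusted p = 0.0195). Whether these moved with the macrophage and stellate markers was not tested.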

How the data were processed

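Liver RNA of 8 samples, 1 per genotype and week, was measured on Affymetrix arrays. The authors deposited a linear intensity per probe set, for 45101 probe sets, of which 64 controls were left out. Affymetrix Expression Console is named in the submitters' processing notes; its version and how it summarised probes were not given in the sources used here. Every array had the same mean, 500.004, once 2% of probe sets at either end were trimmed. This scaling by the authors can shift all differences together when bright transcripts change. The array annotation paired 34945 probe sets with 1 gene, 932 with several genes and 9160 with none, and symbols of 34741 were matched to RefSeq (GRCm38.p6).

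Intensities were transformed as log2(intensity + 16), which makes changes of dim probe sets look smaller. Probe sets with a mean above the 40th percentile were kept (27022 probe sets). Genotypes were compared in R 4.3.3 by limma 3.58.1, using lmFit and trended eBayes. The model held the week as a factor, which sets the genotypes against each other within each week as the study did, and p values were adjusted by the Benjamini-Hochberg method. A second model took the week as a number, with 1 slope per genotype. The week comes from the labels; deviations of arrays of the same week from their genotype means correlated at 0.10, -0.02, -0.03 and 0.11 for weeks 1 to 4. The fit was tested on simulated data. All members were named, and of the other haemostasis genes the 8 with the smallest p among those that passed; of the marker lists, counts, medians and sums. Members and lists were chosen with earlier results of these data known. Other settings tried were no filter or a stricter one, pseudocounts of 1 and 64, median centring, quantile normalization, no trend, probe sets averaged, no week in the model, the methods' t-test, each week left out, and, chosen after seeing the data, centring on the kept probe sets and scaling to hepatocyte markers. Promoter windows came from RefSeq; no protein sequences were used here.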

Additional observations from a re-analysis of the deposited data

Results flagged for a closer look

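In each genotype the array farthest from the other 3 was compared with the spread of the 4, by Dixon's ratio and its critical value for 4 samples, for each of the 33 genes. Of these 66 groups 5 were past it, and chance flags about 1 in 20 groups. The Pemt-/- array of week 2 was the highest for Vwf, at 359 against 214 to 223 on the other 3 Pemt-/- arrays (ratio 0.919), and for Kng1, at 39703 against 29533 to 30482 (ratio 0.893). Among the Pemt+/+ arrays, F8 was highest at week 1, at 466 against 396 to 402 (ratio 0.904), and Fgg was lowest at week 1, at 42921 against 45366 to 45872 (ratio 0.833). Lman1 was highest on the Pemt+/+ array of week 2, at 8746 against 7784 to 7910 (ratio 0.863).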

How the results depend on the processing

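Over all genes, 2610 passed the test, against 1332 by eBayes without the trend, 1119 to 2881 when 1 week was left out, and 4383 unadjusted or 1483 after Benjamini-Hochberg by the methods' t-test. Of the clotting genes 20 were lower, against 11 with quantile normalization, 4 without the trend, 11 by the methods' t-test after Benjamini-Hochberg and 4 to 21 with 1 week left out. The count of higher genes was 2, against 1 with no filter, 1 with quantile normalization, 1 without the trend, 1 by that t-test, 1 with centring on the kept probe sets and 1 to 2 with 1 week left out. The median of the hepatocyte-made genes was -0.45, and -0.23 with quantile normalization. Without the week as a replicate block, 19 clotting genes were lower and 3 higher, of 2745 called over all genes. The block moved 2 calls among the clotting genes, those of F13b and Pros1. Centring on the kept probe sets moved the median of all genes to -0.14, against 0.02, and the share of higher genes among all calls to 38.9%, against 62.8%. Under it the median of the hepatocyte-made genes was -0.61, Mcfd2 turned to -0.10 (adjusted p = 0.48) and F8, F12, Lman1, Serpina10 and Serpinf2 passed as lower. The median of the 6 fibrinolysis genes, -0.09, ran from -0.16 to 0.013 with 1 week left out, the value above 0 being that without week 1, and was -0.45 under the stricter filter, which left 5 of them. Causes were not tested. Most values of Plau and the Pemt+/+ values of Plat lay near or below the array medians, so the sizes of their folds are uncertain.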
